A study of Mus musculus with 4 samples.

Results

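The Hedgehog ligands and core pathway genes were followed through the ESC to EpiSC transition in 9 genes: the ligands Shh, Ihh and Dhh, the receptor Ptch1, the transducer Smo, the ligand-binding protein Hhip, and the transcription factors Gli1, Gli2 and Gli3. The set was selected on the Shh value of the Cripto KO transition, the largest increase there, so that value is given as a description. All 9 genes were among the 37620 genes of the raw count table, and 8 were among the 15462 genes kept by the authors' filter on low values. Dhh was not kept. Shh owed its place to the F/A libraries and Ihh to WT F/A, so a count over the kept members is not independent of the change in these genes.

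RNA came from R1 mouse ESCs, an embryonic stem cell line of strain 129/Sv, either WT or Cripto KO. Both genotypes were grown in serum/LIF, labelled ESC, or for 6 days in N2B27 with bFGF and Activin A at 20 ng/ml (F/A), labelled EpiSC. Each of the 4 conditions had 1 library, so differences were set against a 2-fold change and, for single genes, against counting error. No spread between cultures, and no test of a condition, could be had. The study used independent Cripto KO clones, and which of them was sequenced is not given in the sources used here.

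The library totals ran from 15230856 to 17315442 counts. Tdgf1, the gene that encodes Cripto, had 18714 counts in WT serum/LIF, 1572 in WT F/A, 945 in Cripto KO serum/LIF and 86 in Cripto KO F/A. Nearly all counts of Cripto KO F/A were even, with 3 genes (0.016%) at an odd count, so its counts were divided by 2 for every interval and its detection limit was set at 6 counts in place of 3. Naive ESC genes summed to 5799 and 4996 cpm (counts-per-million, the count scaled to the library total) in serum/LIF and to 165 and 132 in F/A (WT and Cripto KO). Primed EpiSC genes summed to 197 and 214 in serum/LIF and to 1667 and 936 in F/A.

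Hedgehog ligands are secreted proteins that bind the receptor Ptch1 and relieve its block on Smo, which then lets Gli proteins act on target genes. Ptch1, Hhip and Gli1 are themselves targets of the pathway, and their transcript levels are in common use as its readout. Hhip and Ptch1 also bind and hold back the ligand. Gli3, and Gli2 in part, are cut into repressors when no ligand is present. Vertebrate Hedgehog signal passes through the primary cilium, and in the early mouse embryo Shh marks the node, the notochord, the floor plate and parts of the endoderm.

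Promoter sequence was taken from RefSeq (GRCm38.p6) and was found for 7 of the 9 genes, all but Shh and Gli1. The 250 bases before the start of 4 genes are shown 5′ to 3′ on the gene's strand, because Ptch1 and Hhip were the members at least 2-fold higher in Cripto KO than in WT in serum/LIF, and Gli2 and Gli3 moved in opposite directions in F/A. They lie at chr13:63565736-63565985 (Ptch1, minus strand), chr8:80058009-80058258 (Hhip, minus strand), chr1:119053620-119053869 (Gli2, minus strand) and chr13:15463473-15463722 (Gli3, plus strand). Capitals mark CCACCC or its reverse complement, the core letters of the Gli binding sequence.
Ptch1: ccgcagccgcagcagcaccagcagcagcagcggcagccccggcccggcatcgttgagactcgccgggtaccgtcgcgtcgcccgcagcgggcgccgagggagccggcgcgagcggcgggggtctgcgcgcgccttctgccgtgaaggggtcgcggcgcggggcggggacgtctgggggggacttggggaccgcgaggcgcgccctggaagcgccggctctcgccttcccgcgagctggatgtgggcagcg
Hhip: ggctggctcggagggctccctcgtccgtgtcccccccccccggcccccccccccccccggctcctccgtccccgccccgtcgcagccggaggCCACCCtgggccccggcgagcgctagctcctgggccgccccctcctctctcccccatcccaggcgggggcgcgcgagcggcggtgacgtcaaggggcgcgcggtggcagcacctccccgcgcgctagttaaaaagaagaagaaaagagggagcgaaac
Gli2: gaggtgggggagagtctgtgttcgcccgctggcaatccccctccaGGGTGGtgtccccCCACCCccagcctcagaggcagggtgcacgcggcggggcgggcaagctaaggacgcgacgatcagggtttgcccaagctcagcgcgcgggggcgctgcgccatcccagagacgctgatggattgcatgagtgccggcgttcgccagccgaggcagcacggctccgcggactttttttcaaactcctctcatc
Gli3: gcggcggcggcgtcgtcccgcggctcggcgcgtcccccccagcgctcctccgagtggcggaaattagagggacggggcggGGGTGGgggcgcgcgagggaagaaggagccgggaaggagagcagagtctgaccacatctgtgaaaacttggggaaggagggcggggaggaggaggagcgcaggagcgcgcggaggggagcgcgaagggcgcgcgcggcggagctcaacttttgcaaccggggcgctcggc

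The full Gli binding sequence GACCACCCA was on neither strand of these windows in any of the 7 genes, and neither was GACCNCCCA, which contains it. Of all 32851 promoter windows of the same length, 0.225% held the first and 0.868% the second. The core CCACCC, which both contain when N is A, was found 2 times in Gli2, 1 time each in Hhip and Gli3, and 0 times in Ptch1, while 28.1% of all windows held it at least once. The sequences are rich in G and C, from 67.2% in Gli2 to 78.4% in Ptch1. A match in letters is a description and not a binding site.

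In serum/LIF the ligands were at or near the detection limit, and in F/A Shh was the ligand that was abundant in both genotypes. Shh had 4 counts in WT serum/LIF, 2921 in WT F/A, 0 in Cripto KO serum/LIF and 2108 in Cripto KO F/A. Both F/A libraries were thus far above both serum/LIF libraries. In WT, Shh was 830 times as high in cpm in F/A as in serum/LIF, with a counting interval of 324 to 3049, and the log2 change of the normalized values was 9.97. In Cripto KO the serum/LIF library had no count, and Shh in F/A was, in cpm, 726 times the detection limit of 3 counts there. Counting error is not included in this value.

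Ihh, the ligand of cartilage and visceral endoderm, had 9 counts in WT serum/LIF, 40 in WT F/A, 5 in Cripto KO serum/LIF and 12 in Cripto KO F/A. Its log2 change in F/A was 2.53 in WT, with an interval of the ratio from 2.41 to 11.8. In Cripto KO it was 1.61, with an interval of 0.63 to 10.3 that holds 1. Dhh, the ligand of Sertoli and Schwann cells, had 7, 7, 3 and 16 counts in the same order of libraries, and all 4 stayed under 20 counts.

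**Figure D1:**
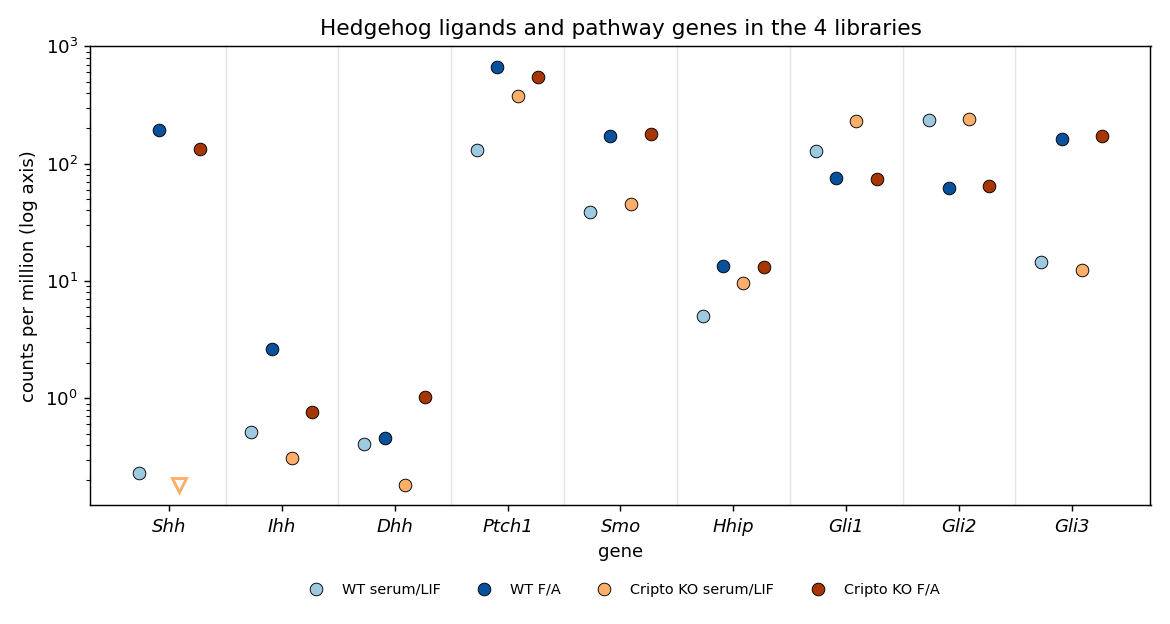
Level in cpm (log axis) of each Hedgehog gene in each of the 4 libraries; 1 point is 1 library, and the open triangle is the detection limit of 3 counts, drawn where the count was 0. Shh had 2921 and 2108 counts in the F/A libraries and 4 and 0 in serum/LIF, whereas Gli1 and Gli2 lay higher in the serum/LIF libraries than in the F/A libraries of both genotypes.

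Counts at the Shh locus were not free of neighbours. Shh (ENSMUSG00000002633, NCBIM37 chr5:28783355-28793641, minus strand, 3 exons) shares 291 of its 2692 exon bases with the lincRNA 9530036O11Rik and 361 with the lincRNA Gm17493, both on the opposite strand. 9530036O11Rik had 0 counts in both serum/LIF libraries, 666 in WT F/A and 530 in Cripto KO F/A. Gm17493 had 0 counts in both serum/LIF libraries, 816 in WT F/A and 574 in Cripto KO F/A. The strand setting of the counting is not given in the sources used here, so in the shared bases reads of Shh and of these antisense RNAs cannot be told apart.

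The receptor Ptch1, the sink for all Hedgehog ligands, rose in the WT transition and was already high in Cripto KO before it. Ptch1 had 2267 counts in WT serum/LIF, 10186 in WT F/A, 6166 in Cripto KO serum/LIF and 8592 in Cripto KO F/A. WT serum/LIF was the low library, and the other 3 were within a narrower range. The normalized value rose 5.21-fold in WT, with a counting interval of 4.88 to 5.35 for the ratio of cpm. It was 1.42 times as high in F/A as in serum/LIF in Cripto KO, with an interval of 1.38 to 1.5, under the 2-fold threshold.

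Hhip, a membrane-bound decoy for Hedgehog ligands, had 87 counts in WT serum/LIF, 204 in WT F/A, 157 in Cripto KO serum/LIF and 208 in Cripto KO F/A. As for Ptch1, the lowest library was WT serum/LIF. Hhip rose 2.67-fold in the WT transition (interval 2.06 to 3.47) and its ratio was 1.26 in the Cripto KO transition (interval 1.06 to 1.76).

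Smo, the 7-pass membrane protein that passes on the signal, had 674 counts in WT serum/LIF, 2619 in WT F/A, 736 in Cripto KO serum/LIF and 2820 in Cripto KO F/A. It separated the media and not the genotypes. Smo rose 4.12-fold in WT and 3.88-fold in Cripto KO, with intervals of 4.06 to 4.81 and 3.62 to 4.33. An annotated pseudogene, Gm13717, lies across the Smo locus without sharing an exon base and had at most 14 counts.

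The 3 Gli factors went separate ways. Gli3, in the main a repressor, had 250 counts in WT serum/LIF, 2454 in WT F/A, 201 in Cripto KO serum/LIF and 2688 in Cripto KO F/A. It rose 10.7-fold in WT and 13.2-fold in Cripto KO, with intervals of 9.79 to 12.8 and 11.9 to 16.1. Gli2, the main early activator, had 4067, 936, 3923 and 1020 counts in the same order. Gli2 was 4.04-fold lower in F/A in WT and 3.81-fold lower in Cripto KO.

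Gli1, an activator that is switched on by the pathway and has no repressor form, had 2225 counts in WT serum/LIF, 1144 in WT F/A, 3791 in Cripto KO serum/LIF and 1174 in Cripto KO F/A. Cripto KO serum/LIF was the highest library and the F/A libraries were alike. Gli1 fell 3.17-fold in the Cripto KO transition. In WT its log2 change was -0.86, under the threshold, with an interval of 0.544 to 0.628 for the ratio. Gli1 thus went down in count in the same pairs of libraries in which Shh went from 4 to 2921 and from 0 to 2108 counts. Gli1 shares 55 of its 3782 exon bases with Arhgap9 on the opposite strand, which had 373, 29, 367 and 28 counts in the same order.

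**Figure D2:**
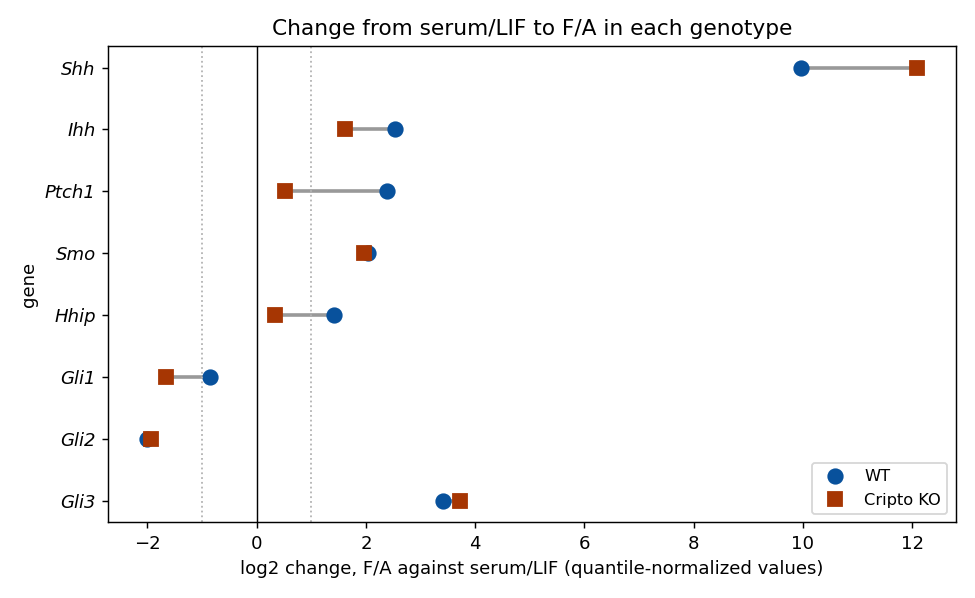
F/A against serum/LIF as the log2 change of the quantile-normalized value (0 replaced by 0.5) for the 8 kept genes, with a circle for WT, a square for Cripto KO and dotted lines at a 2-fold change; each symbol rests on 1 library per medium. Ptch1 moved from 2.38 in WT to 0.51 in Cripto KO, and Smo, Gli2 and Gli3 had like changes in both genotypes.

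Of the 8 kept genes, 6 rose at least 2-fold in the WT transition and 1 fell, when 22.1% of all kept genes rose and 20.9% fell. In the Cripto KO transition, on which the set was chosen, 4 rose and 2 fell, beside 19.9% and 19.4% of all kept genes, and nothing is read from these counts. The members had a median of 2.21 (WT) and 1.06 (Cripto KO) on the log2 scale, against -0.07 over all kept genes in each. Shh and Ihh, kept through F/A libraries, are in both medians and among the 6 that rose in WT. The Cripto KO median also holds the value the set was selected on. Nothing is read from the medians.

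The size of the change differed between the genotypes for some members. For Ptch1 the log2 change in Cripto KO minus that in WT was -1.87. From counts alone it was -1.83, with a counting interval of -1.91 to -1.74. For Hhip the difference was -1.08, and from counts -0.96 with an interval of -1.47 to -0.45. For Gli1 it was -0.80, under the threshold, with a count-based interval of -1.03 to -0.71. The 3 pathway targets among the members therefore all had a lower change in Cripto KO. For Ihh, a ligand, the difference was also negative, at -0.92, with a count-based interval of -3.03 to 0.98 that holds 0.

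For Shh the difference was 2.13, which rests on a library with 0 counts against a library with 4, and no counting interval can be had for it. Smo, Gli2 and Gli3 differed by -0.09, 0.09 and 0.30 between the transitions. Among all kept genes, 7.68% had a change at least 2-fold higher in Cripto KO than in WT and 9.38% at least 2-fold lower. Among the members 2 (Ptch1 and Hhip) were lower and 1 was higher, which is Shh, whose difference contains the value the set was selected on, so nothing is read from it.

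To see where these differences arose, Cripto KO was set against WT in each medium. In serum/LIF the receptor Ptch1 and the targets Gli1 and Hhip were higher in Cripto KO by more than counting error, Smo was so by a small margin, and the remaining members were not. Ptch1 was 2.82-fold higher in Cripto KO, with a counting interval of 2.76 to 3.04. Gli1 was 1.78 times as high (1.72 to 1.91). Hhip was 2.11-fold higher in normalized values, and 1.92 times as high in cpm, with an interval of 1.47 to 2.53, so that its place past the 2-fold threshold rests on the scaling.

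The other members of the signal chain differed less in serum/LIF. Smo was 1.17 times as high in Cripto KO (interval 1.05 to 1.29), Gli2 1.01 times and Gli3 0.912 times, and the intervals of Gli2 (0.983 to 1.07) and Gli3 (0.708 to 1.03) hold 1. Shh had 4 counts in WT and 0 in Cripto KO, which gives a ratio between 0 and 1.61. No difference in Shh, Ihh or Dhh was detectable at this depth in serum/LIF, and the higher Ptch1 and Gli1 of Cripto KO stood beside ligand counts of 5 or fewer. By the 2-fold rule 2 members were higher and 1, Shh, was lower, beside 2.86% and 2.73% of all kept genes. The 0 of Shh in Cripto KO serum/LIF is part of the value the set was selected on, so nothing is read from the lower call.

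In F/A the genotypes were closer. Ptch1 had a ratio of 0.769 in normalized values and 0.816 in cpm, with an interval of 0.787 to 0.846. Shh had a ratio of 0.727 in normalized values and 0.698 in cpm (0.65 to 0.75). Both were lower in Cripto KO by more than counting error and by less than 2-fold. Hhip, Gli1, Gli2, Gli3 and Smo had ratios between 0.994 and 1.12, and the intervals of all 5 hold 1.

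Ihh was the member past the threshold in F/A, 2.89-fold lower in Cripto KO, on 40 against 12 counts (ratio interval 0.101 to 0.689). Thus 0 members were higher and 1 was lower, beside 4.57% and 5.69% of all kept genes. Ihh was kept through WT F/A, its highest library, and Dhh, with 7 counts in WT F/A and 16 in Cripto KO F/A, was not kept. The filter therefore helps fix this count, and nothing is read from it. In bulk RNA, fewer cells of a type and less RNA per cell cannot be told apart.

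**Figure D3:**
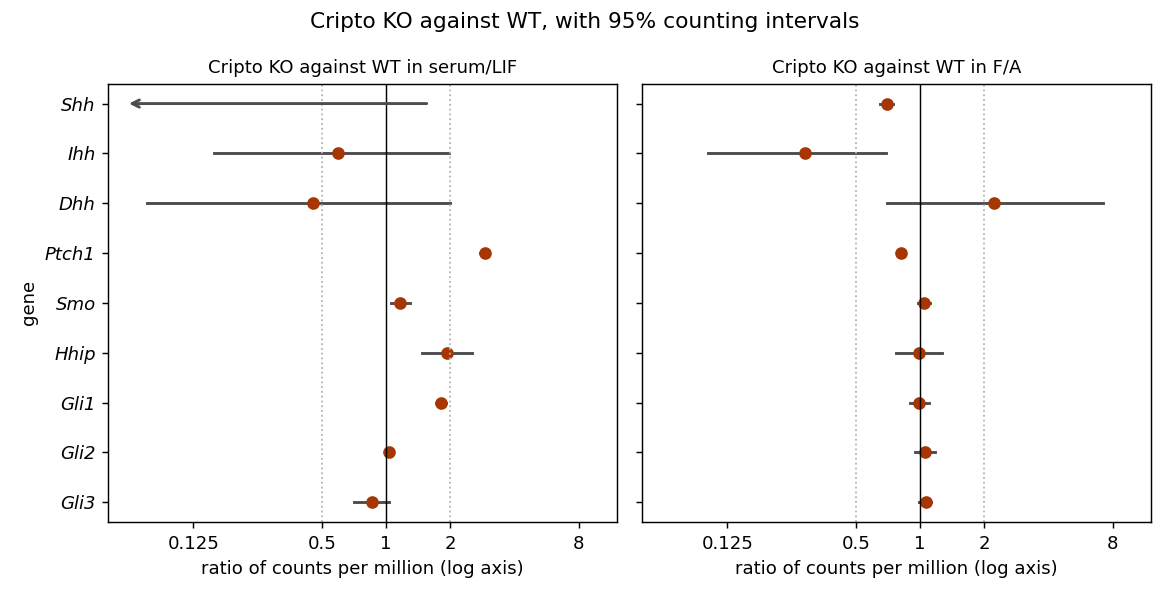
Ratio of cpm, Cripto KO to WT (log axis), in serum/LIF (left) and F/A (right), with 95% Clopper-Pearson counting intervals as bars, which do not cover differences between cultures; the arrow for Shh stands for a ratio of 0 with an upper bound of 1.61, and dotted lines are a 2-fold change. Ptch1 (2.9), Hhip (1.92) and Gli1 (1.81) lie to the right of 1 in serum/LIF, while Ptch1 (0.816) and Shh (0.698) lie to the left of it in F/A.

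Levels of different members can be compared only per length, and the annotated transcripts of some differ much in length (Gli2, median 911 and longest 6637 bases). In cpm per kb of the longest transcript, WT serum/LIF was led by Gli2 at 35.4 and Gli1 at 35.1, whose counting intervals overlap, followed by Ptch1 at 30.4 and Smo at 10.3. Cripto KO serum/LIF was led by Ptch1 at 88.1, ahead of Gli1 at 63.6 and Gli2 at 36.4. In both F/A libraries the order began with Ptch1, Shh and Smo, at 155, 71.2 and 45.5 in WT and at 127, 49.7 and 47.4 in Cripto KO, where Shh and Smo overlap in their intervals. Per median transcript length Gli2 was first in both serum/LIF libraries and Ptch1 in both F/A libraries. Ihh, Dhh and Shh were the lowest 3 in serum/LIF on both scales.

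The make-up of the Gli family changed with the medium on either length. Gli3 held 1.81% of the summed Gli level in WT serum/LIF and 39% in WT F/A per median transcript length, and 2.45% and 39.9% per longest transcript. In Cripto KO the Gli3 share was 1.33% and 39.6% per median length, and 1.49% and 41% per longest transcript. Gli2 went the other way, from 79.7% to 40.2% in WT per median length and from 49% to 18.7% per longest transcript. In the F/A libraries of WT and Cripto KO the shares were close for each factor, with Gli1 at 41.4% and 39.9% per longest transcript, and Cripto KO serum/LIF had more Gli1 (28.7% or 62.7%) than WT serum/LIF (18.5% or 48.5%).

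**Figure D4:**
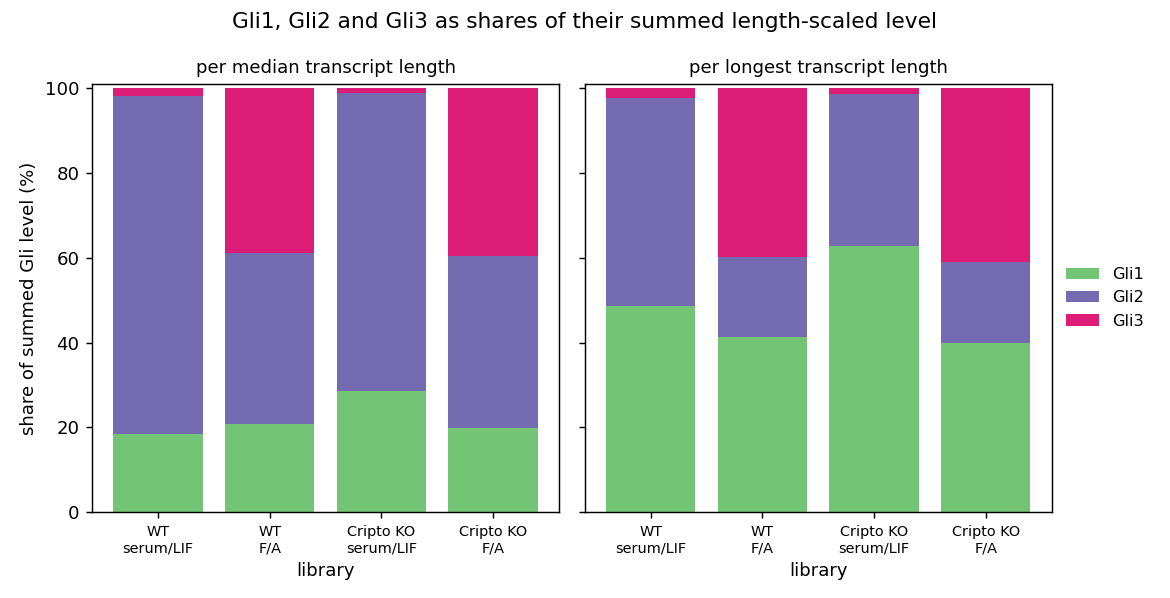
Shares (%) of Gli1, Gli2 and Gli3 in their summed cpm per kb in each library, with length as the median (left) or the longest (right) annotated transcript. The Gli3 share was 1.81% in WT serum/LIF and 39% in WT F/A per median length, and the F/A bars of both genotypes were close on both scales.

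The wider pathway was read from lists of genes with known roles, without the 9 members. Of 106 genes, 98 were kept by the filter, and 26 rose and 9 fell at least 2-fold in the WT transition, against 22 and 9 in the Cripto KO transition. As shares these were 26.5% and 9.18% in WT and 22.4% and 9.18% in Cripto KO, so the number that rose was near that of all kept genes (22.1% and 19.9%) and fewer fell. Between the genotypes 4 were higher and 0 lower in serum/LIF (4.08% higher, near the 2.86% of all kept genes), and 10 were higher and 0 lower in F/A (10.2% higher, beside 4.57% of all kept genes). The count in F/A includes genes kept through their F/A libraries and highest in Cripto KO F/A, so nothing is read from it.

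Of the co-receptors and surface antagonists, 5 of 6 kept genes were higher in F/A in each genotype, beside 22.1% (WT) and 19.9% (Cripto KO) of all kept genes. In Cripto KO 1 was lower, beside 19.4% of all kept genes. Lrp2, an endocytic receptor that binds Shh, had 1095 counts in WT serum/LIF, 10072 in WT F/A, 1865 in Cripto KO serum/LIF and 6926 in Cripto KO F/A. It rose by 3.40 (WT) and 1.93 (Cripto KO) on the log2 scale, a difference of -1.47 with a count-based interval of -1.57 to -1.33. Lrp2 is, like Ptch1, a gene whose change was lower in Cripto KO.

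Gpc3, a glypican that competes with Ptch1 for the ligand, had 1124, 9777, 1048 and 12205 counts in the same order and rose by 3.32 and 3.57. Cdon, a co-receptor that helps the ligand bind Ptch1, had 368, 2331, 301 and 1778 counts and rose by 2.78 and 2.55. These changes were of like size in both genotypes.

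Boc, a co-receptor related to Cdon, had 129 counts in WT serum/LIF, 250 in WT F/A, 76 in Cripto KO serum/LIF and 584 in Cripto KO F/A. It rose by 1.10 (WT) and 2.88 (Cripto KO). Gas1, a membrane-anchored co-receptor, had 170, 326, 189 and 794 counts and rose by 1.09 and 1.99. Boc and Gas1 were the members of the list at least 2-fold higher in Cripto KO than in WT in F/A. Their folds were 2.27 (interval 1.9 to 2.69) and 2.37 (2.03 to 2.74). Gpc5, a further glypican, had 8 or fewer counts in every library and was not kept.

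Among genes of ligand release and spread, 4 of 9 kept genes rose in WT and 3 in Cripto KO, and 1 fell in WT, beside 22.1% and 19.9% of all kept genes that rose and 20.9% that fell in WT. Gpc6, a glypican, had 28, 775, 26 and 932 counts and rose by 5.08 in WT and 5.16 in Cripto KO. Ext1, which builds the heparan sulfate chains on which ligands travel, rose by 1.50 and 1.78. Scube1, of the family that helps release the lipid-bearing ligand, had 26, 43, 29 and 146 counts and was 3.27-fold higher in Cripto KO than in WT in F/A (interval 2.22 to 4.91). Disp1, which exports the ligand, was not analysed here.

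Of the genes between Smo and the Gli factors, 0 of 27 differed by 2-fold between the genotypes in either medium, where few of all kept genes did (2.86% higher and 2.73% lower in serum/LIF, 4.57% and 5.69% in F/A), so little is read from this. Of these 27, 5 (18.5%) rose and 1 fell in WT, and 4 (14.8%) rose and 1 fell in Cripto KO, so the share that rose was near the 22.1% and 19.9% of all kept genes. The gene that fell in both was Evc, a ciliary partner of Smo, with 1104 counts in WT serum/LIF, 106 in WT F/A, 1062 in Cripto KO serum/LIF and 148 in Cripto KO F/A, a log2 change of -3.30 and -2.86. Sufu and Kif7, which hold Gli proteins in check, changed by 0.64 and -0.36 in WT and by 0.90 and -0.21 in Cripto KO, all under the threshold. Gsk3b, a kinase that primes Gli proteins for processing, rose by 1.94 and 1.23.

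Genes of the primary cilium, 40 of them kept, had medians of -0.24 (WT) and -0.22 (Cripto KO) on the log2 scale, against -0.07 over all kept genes. In WT 2 (5%) were higher and 6 (15%) lower, and in Cripto KO 0 were higher and 5 (12.5%) lower, all shares below those of all kept genes (22.1% and 20.9%, 19.9% and 19.4%). Mks1, of the transition zone at the base of the cilium, changed by -1.46 and -1.34. Between the genotypes 0 passed 2-fold in serum/LIF, and B9d2, also of the transition zone, was higher in Cripto KO in F/A by 1.01.

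**Figure D5:**
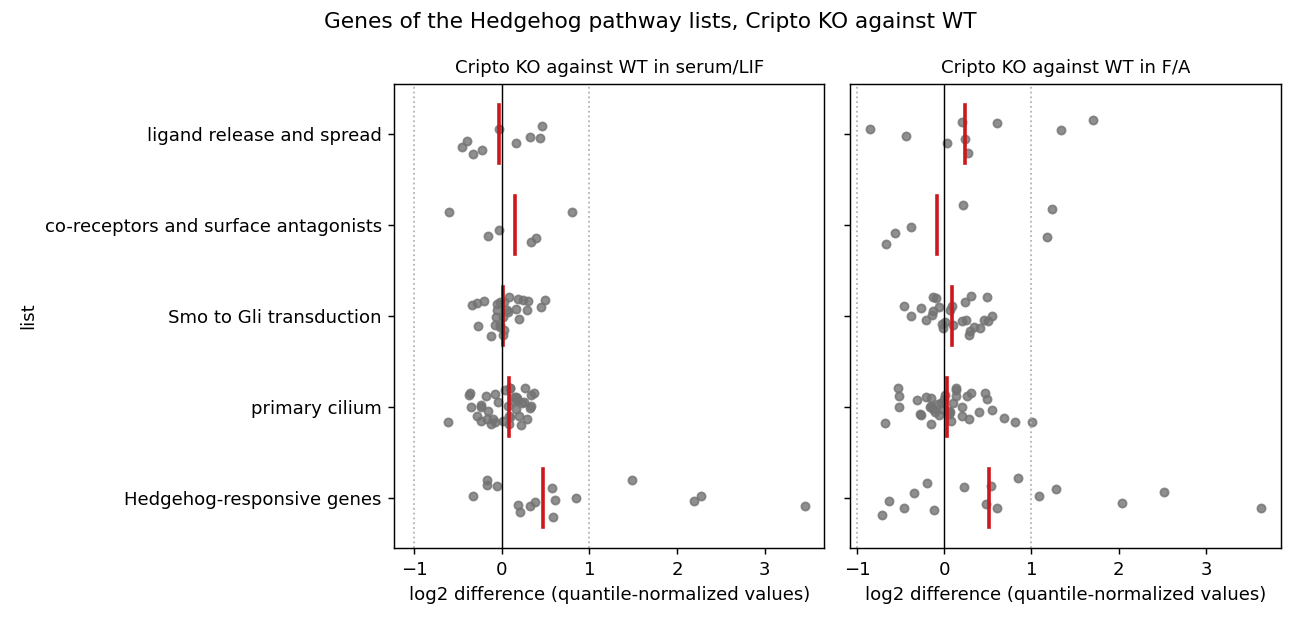
Log2 difference of normalized values, Cripto KO against WT, in serum/LIF (left) and F/A (right) for each kept gene of the pathway lists; 1 point is 1 gene, red bars are medians and dotted lines a 2-fold difference. Points of the transduction list stay within the 2-fold lines in both media (0 of 27 outside), while 4 of 16 responsive genes lie above them in serum/LIF and 5 in F/A. The rightmost point in serum/LIF is Osr1 on 0 and 6 counts, with its place set by the 0.5 put for 0. The lower bound of its ratio of cpm is 1.25.

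Of the genes known to respond to Hedgehog in one tissue or another, 10 of 16 kept genes were higher in each transition, 1 was lower in WT and 2 in Cripto KO, beside 22.1% and 19.9% of all kept genes higher. Most of those higher, such as Foxa2, Foxf1a, Nkx6-1 and Osr1, were kept through their F/A libraries, so the filter helps fix this count and nothing is read from it. In serum/LIF 4 of the 16 were at least 2-fold higher in Cripto KO than in WT and 0 were lower, beside 2.86% and 2.73% of all kept genes, with a median difference of 0.48 against 0.00 over all kept genes. The 4 are named after their values were seen. Nkx2-9, a ventral neural tube factor, had 43 counts in WT serum/LIF and 159 in Cripto KO serum/LIF. That is a 4.58-fold difference in normalized values, and a ratio of 3.94 in cpm with an interval of 2.8 to 5.65. The other 3 rest on few counts, with 5 and 18 for Bcl2, 5 and 11 for Foxa2, whose interval of 0.75 to 8.6 holds 1, and 0 and 6 for Osr1.

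Nkx2-9 had 44 counts in WT F/A and 32 in Cripto KO F/A. Its highest library was therefore Cripto KO serum/LIF, as for Gli1, and its change in the Cripto KO transition was -2.19 against 0.34 in WT. The summed floor plate and ventral neural tube genes, to which Nkx2-9 belongs, were 35.7 cpm in WT serum/LIF and 91.4 in Cripto KO serum/LIF. Of the 7 kept genes 3 were at least 2-fold higher (Nkx2-9, Ntn1 and Foxa2, the last within counting error) and 0 lower, beside 2.86% and 2.73% of all kept genes. Most of the gain in the sum was the single gene Ntn1, at 25.1 and 69.9 cpm. Of this list Ferd3l was at 0 in both serum/LIF libraries. Node and notochord genes summed to 71.3 and 73.5 in serum/LIF. The part of other cell types in the higher Ptch1, Gli1 and Hhip of Cripto KO serum/LIF was not tested.

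In F/A 5 of the 16 responsive genes were higher in Cripto KO than in WT and 0 were lower, beside 4.57% and 5.69% of all kept genes. Of these, Osr1, Foxc2, Foxf1a and Foxf2 were kept through their F/A libraries and were highest in Cripto KO F/A. The filter therefore helps fix this count, and nothing is read from it. Osr1, Foxc2 and Foxf1a, mesoderm factors, had 27 and 352, 169 and 984, and 44 and 190 counts in WT and Cripto KO F/A. Their folds were 12.4 (interval 8.38 to 19.7), 5.72 (4.72 to 6.75) and 4.11 (2.89 to 6.12). Foxf2 had 17 and 40 counts, with an interval of 1.13 to 4.63. Ccnd1, a cyclin, had 1365 and 2846 counts and was 2.12-fold higher (1.87 to 2.17). Paraxial and lateral mesoderm genes, a list that also holds Osr1 and Foxf1a, summed to 105 cpm in WT F/A and 368 in Cripto KO F/A. Of its 13 kept genes 7 were at least 2-fold higher and 1 was lower, and none of the list was at 0 in either library. Hand1, Hand2, Meox1, Osr1 and Foxf1a, among those higher, were kept through F/A and highest in Cripto KO F/A. For this list too, nothing is read from the count.

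Shh, lower in Cripto KO F/A, is also a gene of node and endoderm. Node and notochord genes summed to 1352 cpm in WT F/A and 880 in Cripto KO F/A, with 2 of 12 lower by at least 2-fold and 0 higher. Of the 2, Tekt1 had 6 counts in WT and 0 in Cripto KO, with an interval that holds 1. Much of the lower sum lay in T, at 574 and 356 cpm, and Slit2, at 210 and 108. Noto, with 61 and 58 counts, and Nog, with 1019 and 1060, had intervals that hold 1. Dand5 was higher by less than 2-fold, on 30 and 56 counts, and the median log2 difference of the list was -0.58. Definitive endoderm and gut genes summed to 613 and 264, with 6 of 13 kept genes lower, 1 higher and none of the list at 0. Much of this lower sum lay in Trh, at 195 and 53.9 cpm, and Eomes, at 129 and 26.8. Trh also had 149 cpm in WT serum/LIF and 214 in Cripto KO serum/LIF. The higher gene was Cdx2, with 104 and 674 counts. Cer1, Gsc and Sox17, among the lower, were kept through F/A and highest in WT F/A, so nothing is read from the count of this list. Beside the counts of all these lists, 4.57% of all kept genes were higher and 5.69% lower in Cripto KO F/A. Feeder fibroblast genes summed to 152 and 298, with 4 of 11 kept genes higher and 1 lower. Of those higher, Mgp had 2 counts in WT and 4 in Cripto KO, with an interval that holds 1. Visceral endoderm genes summed to 157 and 191 with Afp at 0 in both, the higher sum resting on Gata4 and Gata6. In this list 3 of 9 kept genes were lower, 1 was higher and the median log2 difference was -0.81. Amn, among the lower, had 2 and 0 counts in WT and Cripto KO. Hnf4a, the higher gene, had 2 and 4, and both intervals hold 1. The part of these cell types in the levels of Shh and its pathway was not tested.

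Genes with the most similar pattern to a member were sought among 10811 kept genes with at least 200 counts in their highest library, by the distance of centred log2 values over the 4 libraries. With 4 points of which each is 1 library, this is a description. For Shh the nearest was T, the mesoderm and notochord factor brachyury, at a distance of 1.15, with 13 counts in WT serum/LIF, 8748 in WT F/A, 4 in Cripto KO serum/LIF and 5598 in Cripto KO F/A. Cyp26a1, an enzyme that breaks down retinoic acid, followed at 1.77, then the antisense lincRNA Gm17493 at 1.93, Aplnr, the apelin receptor, at 1.96, and Tmprss2, a membrane protease, at 1.99.

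For Ptch1 the nearest were Bhlhe41 at 0.37, Atp10a at 0.40, Ntn1 and Gm16978 at 0.41 and Lims1 at 0.44. Ntn1, the guidance cue netrin-1, had 435 counts in WT serum/LIF, 1564 in WT F/A, 1136 in Cripto KO serum/LIF and 1254 in Cripto KO F/A, with WT serum/LIF again the low library. For Gli1 the nearest was Kank2 at 0.15, with 2418, 1208, 3689 and 1146 counts, followed by Gm17167, Hrk, Epb4.9 and Eef2k at 0.21 to 0.24. The patterns of Shh, Ptch1 and Gli1 shared no gene among the nearest 5.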

How the data were processed

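RNA-seq covered R1 mouse ESCs in 4 conditions, with 1 library each. The authors used TopHat2 2.0.13 for alignment to NCBIM37 (mm9) and htseq-count 0.6.1p1 for counting, and deposited raw counts per gene. The strand option is not given in the sources used here. They also deposited a normalized signal, the full quantile-normalized counts of the genes kept by NOISeq's proportion filter at 1 cpm. Groups came from the labels, and 0 columns were left without a sample. Symbols, coordinates and transcript lengths came from GENCODE vM1 on the same build, and promoters from RefSeq.

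The members and lists were chosen with earlier results of these data known. Log2 changes used the normalized signal with 0 replaced by 0.5, and a gene was called past a 2-fold difference. The simulated probabilities of NOISeq-sim, the study's method, were not used. For single genes, ratios of raw counts scaled by library totals have a 95% interval (Clopper-Pearson), computed with Python 3.11.15 and scipy 1.17.1, which cover counting error only, as do detection limits (3 counts). Totals of 15230856 to 17315442 counts leave genes with few counts imprecise. Folds are of normalized values unless cpm is named, while these intervals are of the ratio of cpm. The counting interval of the difference of transitions is a Poisson error on the log scale. The script was tested on simulated data. Named genes were the members, the co-receptors (some list genes are not reported here), the largest changes per list (at most 4, with at least 100 counts in the higher library, transitions and F/A only), and the 5 genes closest in pattern to Shh, Ptch1 and Gli1. A further few list genes (Sufu, Kif7, Nkx2-9, Bcl2, Foxa2 and Foxf2) were named after their values were seen. Alternatives were other scalings (edgeR 4.0.16, DESeq2 1.42.0), filters, folds and lengths.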

Additional observations from a re-analysis of the deposited data

Results flagged for a closer look

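In 4 genes the difference of Cripto KO from WT had opposite signs in serum/LIF and in F/A, with 1 library per condition, and the difference between the media was not tested. Ptch1 had a log2 difference of 1.50 in serum/LIF and -0.38 in F/A. Bcl2 had 2.28 in serum/LIF, on 5 and 18 counts, and -0.46 in F/A. Boc had -0.60 in serum/LIF and 1.18 in F/A, and Ccnd1 had -0.33 and 1.09.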

How the results depend on the processing

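No paired analysis was possible because each condition had 1 library, and for the same reason no library could be left out. No log2 change of a member past 2-fold changed sign under any alternative. Values near 0 did so under the running median over transcript length, where Gli2 was -0.07 in place of 0.10 in F/A (Cripto KO against WT), Hhip 0.04 there in place of -0.01, and the differences of the transitions were -0.10 in place of 0.09 for Gli2 and 0.14 in place of -0.09 for Smo. Other scalings also moved Hhip and Gli1 in F/A across 0. Among the members in serum/LIF, 1 in place of 2 was higher in Cripto KO under total-count scaling, TMM factors, DESeq2 size factors and halved counts, where Hhip went under 2-fold, and 0 at a fold of 3. The count lower there was 0 in place of 1 with 5 added to every value, or when the interval had to exclude 1, since Shh had 4 counts and 0. In F/A, 1 in place of 0 was higher with no filter (Dhh), and 0 in place of 1 was lower at a mean of at least 50 counts or a fold of 3. For the difference of the transitions, the number higher in Cripto KO was 1, but 0 with 5 added or the interval rule and 2 with no filter, and the number lower was 2, but 1 at a fold of 3. In the pathway lists a fold of 3 left 17 of 26 higher and 3 of 9 lower in WT, 4 of 9 lower in Cripto KO, 4 of 10 higher between genotypes in F/A and 3 of 10 for the difference of the transitions. With no filter 1 in place of 0 was lower in serum/LIF and 2 in place of 0 in F/A. By the longest transcript, 2 of 9 members kept their place in the order of levels in every library.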
